A study of Mus musculus with 3 samples.

Results

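A set of 10 genes of the circadian clock were followed in single-cell transcriptomes of mouse dorsal skin. They were Arntl, Per1, Per2, Per3, Cry1, Ciart, Nr1d1, Nr1d2, Dbp and Tef, 10 of the 32285 genes counted. They were picked because Dbp stood high in the library of irradiated skin that overexpresses Cox-2, and the question asked of them was whether the state of the clock differed in every cell class of a library. The level of Dbp in that library is therefore a description, and the other values are descriptions as well, since each group had 1 library and no test was possible.

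CD45+ beads had been used to enrich immune cells, and the epidermal, vascular and stromal cells reported here are those that remained. WT_Ctrl was wild-type skin without UVB, WT_UV was wild-type skin after 3 UVB exposures given every other day, and RP_UV was skin of Rosa26-rtTA, Tre-Ptgs2 (RP) mice after 3 UVB exposures. RP mice express a rat copy of Ptgs2, the gene of Cox-2, in all tissues under doxycycline, so the transgene is not limited to 1 cell type. All animals were C57Bl/6 males 8 weeks old, in the resting phase of the hair cycle (telogen). The paper took the skin of both irradiated libraries at the same timepoint. It was that of its bulk RNA samples of whole skin, collected hours after the last of the 3 exposures. In the sources used here the hour of day at collection and the light schedule were not given. Nor was it stated whether the wild-type animals of these libraries received doxycycline. The labels place WT_Ctrl and RP_UV on one sequencing run and WT_UV on another, so run and group cannot be told apart in any comparison with WT_UV, and RP_UV differs from WT_Ctrl in both UVB and genotype.

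The clock of mammalian cells is a loop of transcription and repression that takes about a day. Arntl (also called Bmal1) pairs with Clock and binds E-boxes to switch on the Per, Cry, Nr1d and Dbp genes. Per and Cry proteins then return to the nucleus and block that pair, while the Nr1d receptors repress Arntl, so that Arntl and the Nr1d and Dbp transcripts peak at opposite times of day. Dbp and Tef carry the rhythm to other genes by binding D-boxes. Skin, including its keratinocytes and resident macrophages, has such a clock, and its timing can be set by light, feeding and glucocorticoid hormone.

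The DNA before the start sites shows which of these elements each gene carries in its nearest stretch. Windows of 300 bases (250 before and 50 after the start site) were taken from the RefSeq annotation of GRCm38.p6 for 9 of the 10 genes, 12 windows in all, and were searched on both strands for the E-box CACGTG, the D-box (TTATGTAA or TTACGTAA) and the receptor element TAGGTCA. No sequence was used for Per2. The 250 bases before the first start site are given for Dbp, on which the genes were picked, and for Arntl. Arntl is known to peak at the opposite time of day to Dbp. Those of 3 repressors that hold a motif are given as well. Sequences run 5′ to 3′ on the strand of the gene, and capitals mark the motif. Dbp is at chr7:45704997-45705246 (plus strand), Arntl at chr7:113207215-113207464 (plus), Ciart at chr3:95882229-95882478 (minus), Cry1 at chr10:85185055-85185304 (minus) and Per3 at chr4:151044666-151044915 (minus).
Dbp: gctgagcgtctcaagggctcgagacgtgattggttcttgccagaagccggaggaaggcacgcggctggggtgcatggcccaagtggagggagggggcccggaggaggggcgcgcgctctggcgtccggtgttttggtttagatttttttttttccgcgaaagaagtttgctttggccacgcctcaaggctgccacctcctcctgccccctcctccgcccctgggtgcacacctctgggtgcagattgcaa
Arntl: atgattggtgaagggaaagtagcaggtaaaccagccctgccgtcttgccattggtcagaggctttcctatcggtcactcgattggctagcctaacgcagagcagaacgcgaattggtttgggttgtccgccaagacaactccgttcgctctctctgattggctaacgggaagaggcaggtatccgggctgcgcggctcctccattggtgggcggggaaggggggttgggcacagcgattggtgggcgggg
Ciart: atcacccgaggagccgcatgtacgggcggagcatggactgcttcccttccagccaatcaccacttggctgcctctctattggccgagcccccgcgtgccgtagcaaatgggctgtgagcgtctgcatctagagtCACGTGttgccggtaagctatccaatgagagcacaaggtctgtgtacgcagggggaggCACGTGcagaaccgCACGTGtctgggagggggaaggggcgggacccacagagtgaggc
Cry1: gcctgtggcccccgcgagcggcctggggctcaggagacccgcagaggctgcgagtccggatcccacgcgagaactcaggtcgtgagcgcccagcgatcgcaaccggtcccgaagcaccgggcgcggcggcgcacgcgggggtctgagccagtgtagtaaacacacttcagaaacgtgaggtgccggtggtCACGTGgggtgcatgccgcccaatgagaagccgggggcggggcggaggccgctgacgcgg
Per3: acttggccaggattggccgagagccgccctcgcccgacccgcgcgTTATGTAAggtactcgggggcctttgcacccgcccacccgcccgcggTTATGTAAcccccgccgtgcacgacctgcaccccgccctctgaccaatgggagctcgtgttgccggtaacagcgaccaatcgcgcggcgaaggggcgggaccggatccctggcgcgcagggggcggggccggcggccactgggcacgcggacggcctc

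Ciart held the E-box at 3 places, whose first bases lie at -116, -58 and -44 from the start site. Cry1 held it at -60, Per1 at -166 of its first start site, and Tef at -127 and -138 of its 2 start sites. Of all 32851 mouse windows, 7.15% held it. Per3 held the D-box at -205 and -158, against 1.06% of all windows, and Arntl held the receptor element at 31 bases after its second start site, against 2.61% of all windows. The windows of Dbp, Nr1d1 and Nr1d2 held none of the 3, which says only that these letters are not in this stretch. A match is a description of the sequence, and binding was not measured.

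The kept cells numbered 5309 in WT_Ctrl, 5225 in WT_UV and 6070 in RP_UV, with a median of 4246, 10557 and 3774 unique molecular identifiers (UMIs, counts of single RNA molecules) per cell. WT_UV was thus the deepest library and kept 1112 cells with 4000 genes or more, a kind removed from the others. Cell classes were rebuilt from marker genes, each name stands for cells like that type, and 28.3%, 30% and 28.6% of cells stayed unnamed. Macrophages (1407, 2269 and 1387 cells) and keratinocytes (1171, 512 and 1082 cells) were the only classes deep enough in all 3 libraries for nearly all of the 10 genes. All 8 macrophage markers and all 6 keratinocyte markers had UMIs in their class in every library. The summed macrophage markers were at 13966 to 19424 CPM (the UMIs of a gene scaled by those of all genes to a fixed total) in macrophages and at most 4628 in any other class. The libraries shared 8 to 11 cell barcodes per pair. Ptgs2 was at 11.3 CPM in macrophages of WT_Ctrl, 108 in WT_UV and 237 in RP_UV, and at 5.33, 5.64 and 596 in keratinocytes, so the targeted gene was highest in the library labelled RP, although the share of transgene RNA, of rat sequence, that the mouse reference picked up is unknown. Levels are given as CPM of the UMIs summed over a class, with exact 95% Poisson intervals, and folds as ratios of CPM with exact binomial 95% intervals. Both cover counting error only, not differences between animals. Levels of different genes are not compared, since 3′ counts were not scaled for length.

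Dbp, a transcription factor of the PAR bZIP family and a direct output of the clock, set RP_UV apart in macrophages. Dbp (ENSMUSG00000059824) was at 14.6 CPM (11.7 to 17.9, 89 UMIs) in WT_Ctrl, 14.8 (13.4 to 16.3, 409 UMIs) in WT_UV and 79.9 (73.6 to 86.6, 593 UMIs) in RP_UV. The wild-type libraries overlapped and RP_UV stood above both, 5.38-fold over WT_UV (4.74 to 6.12) and 5.49-fold over WT_Ctrl (4.39 to 6.94). With each cell thinned to 2000 UMIs, a Dbp UMI was seen in 3.47% of macrophages in WT_Ctrl, 2.61% in WT_UV and 14.9% in RP_UV. Without thinning the shares were 5.9%, 13.7% and 29.1%, at median depths of 4097, 11161 and 4917 UMIs.

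Keratinocytes held Dbp in another order. The level was 41.7 CPM (37.2 to 46.6) in WT_Ctrl, 16.1 (13.2 to 19.6) in WT_UV and 42.2 (37.8 to 47) in RP_UV. Here WT_Ctrl and RP_UV overlapped, at a fold of 1.01 (0.864 to 1.18), and WT_UV was the library that stood apart, 2.58 times below WT_Ctrl (2.06 to 3.26). RP_UV was 2.61-fold above WT_UV (2.09 to 3.29), so the same contrast gave a higher Dbp in both classes. The keratinocytes of the libraries were not the same cells, however. The cluster led by Krt15 had 369 cells in WT_Ctrl and 6 in RP_UV, and at 71.2 CPM it gave 159 of the 313 Dbp UMIs of WT_Ctrl keratinocytes. In the 8 keratinocyte clusters that both libraries held with 100000 UMIs, Dbp was higher in RP_UV in 7 and lower in 1, with medians of 34.2 CPM in RP_UV and 19.1 in WT_Ctrl, so the equal levels hold for the pooled class and not cluster by cluster. WT_UV was lower than WT_Ctrl in 5 of 7 shared clusters, with medians of 28 and 29.4, and RP_UV was higher than WT_UV in 10 of 11.

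**Figure D1:**
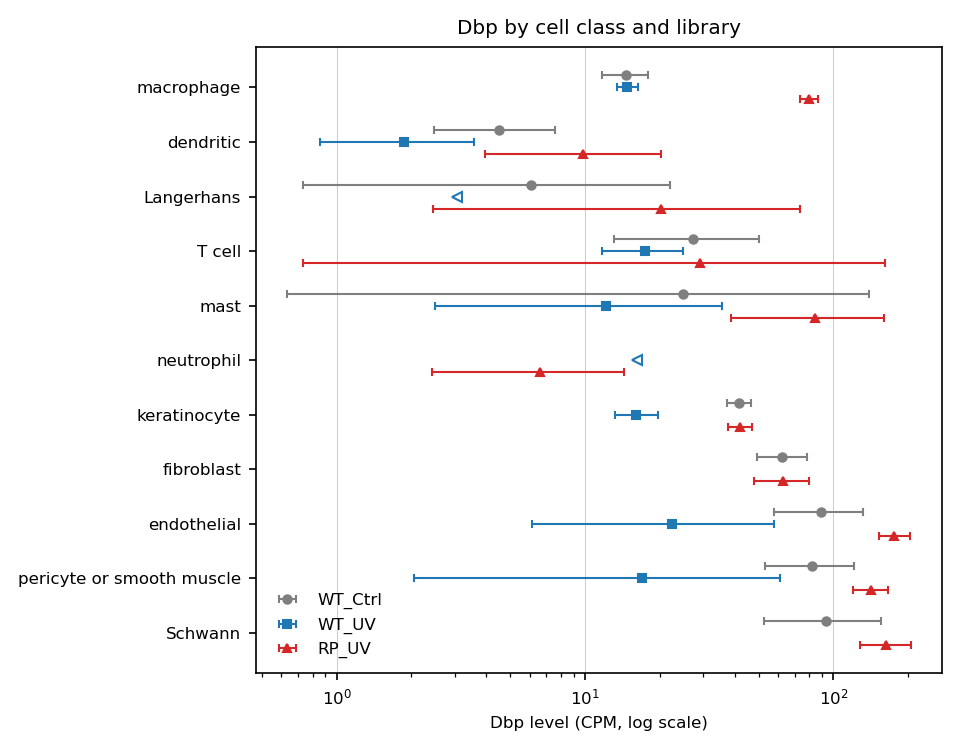
Dbp level by cell class and library, in CPM on a log axis; points are summed UMIs of 1 library, bars are 95% Poisson intervals, and an open left-pointing triangle is a class with 0 UMIs drawn at the level 3 UMIs would give. RP_UV macrophages sit at 79.9 against 14.6 and 14.8 in the wild-type libraries, whereas RP_UV and WT_Ctrl, summed over different clusters, are at 42.2 and 41.7 in keratinocytes and 62.5 and 62.4 in fibroblasts.

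In WT_Ctrl and RP_UV the vessel and nerve classes were among those with the highest Dbp. Endothelial cells were at 89.5 CPM (57.9 to 132) in WT_Ctrl, 22.5 (6.14 to 57.7, 4 UMIs) in WT_UV and 176 (152 to 203) in RP_UV. Pericytes or smooth muscle cells were at 82.2, 16.9 (2 UMIs) and 142 CPM, and Schwann cells at 93.7 in WT_Ctrl and 163 in RP_UV. In these 3 classes RP_UV was the highest library, although the Schwann cell fold over WT_Ctrl of 1.74 had an interval that spans 1 (0.989 to 3.27). The endothelial fold over WT_UV was 7.81 (3 to 29) and over WT_Ctrl 1.97 (1.29 to 3.12), and the pericyte folds were 8.36 (2.27 to 69.7) and 1.72 (1.12 to 2.75). Free RNA from other classes, bounded by their markers, could account for up to 39.5% of the pericyte level in RP_UV and 38.2% in WT_Ctrl, most of it from endothelial cells, against at most 2.13% of the macrophage level in any library. The pericyte class also rests on a cluster led by Fabp4 and Rgs5 whose endothelial markers scored close to its pericyte markers, and which gave 92 of the 147 Dbp UMIs in RP_UV and 13 of 25 in WT_Ctrl. Without it, a choice made after seeing the data, pericytes were at 106 CPM (79.8 to 138) in RP_UV and 73.3 (37.9 to 128) in WT_Ctrl, and the fold of 1.44 had an interval that spans 1 (0.764 to 2.96).

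Fibroblasts had 75 Dbp UMIs at 62.4 CPM in WT_Ctrl and 62 UMIs at 62.5 in RP_UV, a fold of 1 (0.703 to 1.42), with only 4 cells in WT_UV. These sums too came from different clusters, since the cluster led by Col1a1, at 74.5 CPM, had 120 cells in WT_Ctrl and 14 in RP_UV, and the 1 fibroblast cluster that both held with 100000 UMIs was at 50.6 CPM in RP_UV and 32.1 in WT_Ctrl, the latter from 5 UMIs. Dendritic cells were low throughout, at 4.51, 1.87 and 9.85 CPM, each from at most 14 UMIs. Neutrophils had no Dbp UMI in WT_UV, which allows up to 16.2 CPM, and 6.58 CPM in RP_UV, of which free RNA could account for 36.1%. T cells were at 27.3, 17.4 and 29 CPM, the last from 1 UMI, mast cells at 24.9, 12.1 and 84.5 from 1, 3 and 9 UMIs, and Langerhans cells at 6.07, 0 and 20.3 from 2, 0 and 2. Dendritic cells of RP_UV (3.96 to 20.3) lay above those of WT_UV (0.857 to 3.56) with no overlap, as did mast cells (38.6 to 160 against 2.5 to 35.5), and in both classes RP_UV overlapped WT_Ctrl. Free RNA could account for up to 16.9% of the dendritic and 12% of the mast cell level in RP_UV.

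Ordered by Dbp level, the classes of RP_UV ran from endothelial cells (176 CPM) over Schwann cells (163), pericytes (142), macrophages (79.9), fibroblasts (62.5) and keratinocytes (42.2) to dendritic cells (9.85) and neutrophils (6.58), with mast cells, T cells and Langerhans cells too sparse to place. The intervals of the first 3 overlapped in turn, as did those of macrophages and fibroblasts (47.9 to 80.1). In WT_Ctrl the Schwann cells (93.7), endothelial cells (89.5), pericytes (82.2) and fibroblasts (62.4) overlapped in turn, followed among the deeper classes by keratinocytes (41.7) and then macrophages (14.6). Macrophages thus stood above keratinocytes in RP_UV and below them in WT_Ctrl, and below fibroblasts in WT_Ctrl only.

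Arntl, the activating partner of Clock, was low in RP_UV in both deep classes. In macrophages Arntl (ENSMUSG00000055116) was at 16.4 CPM (13.3 to 19.9) in WT_Ctrl, 20.4 (18.8 to 22.2) in WT_UV and 3.1 (1.96 to 4.65, 23 UMIs) in RP_UV. In keratinocytes it was at 18.8 (15.8 to 22.2), 17.9 (14.7 to 21.5) and 5.28 (3.79 to 7.16). The wild-type libraries overlapped in both classes and RP_UV lay below them with no overlap. It was 6.59 times below WT_UV in macrophages (4.35 to 10.5) and 3.39 times in keratinocytes (2.35 to 4.97), and 5.28 times (3.33 to 8.71) and 3.56 times (2.5 to 5.18) below WT_Ctrl. WT_UV over WT_Ctrl gave folds of 1.25 in macrophages (1.01 to 1.56) and 0.951 in keratinocytes (0.736 to 1.23), and the macrophage log2 fold ran from -0.14 to 1.24 over the alternatives, the last with cells thinned to a fixed depth. In the keratinocyte clusters with 100000 UMIs in both libraries, Arntl was lower in RP_UV in 8 of 11 against WT_UV and in 6 of 8 against WT_Ctrl.

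The shallower classes add few Arntl UMIs. Endothelial cells had 5 (17.9 CPM) in WT_Ctrl and 0 in RP_UV, which allows up to 2.86 CPM. Schwann cells had 8 (50 CPM) in WT_Ctrl and 0 in RP_UV, which allows up to 6.8 CPM. Fibroblasts had 14 and 6, at 11.6 and 6.05 CPM. Dendritic cells had 13, 25 and 0 in WT_Ctrl, WT_UV and RP_UV. In endothelial cells, Schwann cells and fibroblasts RP_UV was the lowest library measured. In dendritic cells the level that 0 UMIs allows in RP_UV, with 710842 UMIs, is not below that of WT_Ctrl, so the 2 are not ranked. None of the 4 classes had the 30 UMIs needed for a counted fold between RP_UV and WT_Ctrl. RP_UV was not the lowest in T cells, with 2 UMIs among 22 cells at 57.9 CPM against 25 in WT_UV, nor in neutrophils, with 2 UMIs against 0 in WT_UV.

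Dbp and Arntl peak at opposite times of day, and their ratio within a class needs no scaling by library depth. Macrophages held 0.89 Dbp UMIs per Arntl UMI in WT_Ctrl (0.661 to 1.2), 0.726 (0.638 to 0.827) in WT_UV and 25.8 (17 to 41) in RP_UV. Keratinocytes held 2.22 (1.81 to 2.73), 0.904 (0.685 to 1.19) and 8 (5.77 to 11.4). The ratio was highest in RP_UV in both, and lowest in WT_UV in keratinocytes. It was also higher in RP_UV than in WT_Ctrl in pericytes, at 49 (16.4 to 240) against 6.25 (2.16 to 24.7), and in fibroblasts, at 10.3 (4.49 to 29.2) against 5.36 (3 to 10.3), where the intervals overlap in each class, and in endothelial cells and Schwann cells, which had no Arntl UMI in RP_UV and whose ratios were at least 49.7 and 19 by the lower 95% bound, against 5 and 1.88.

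**Figure D2:**
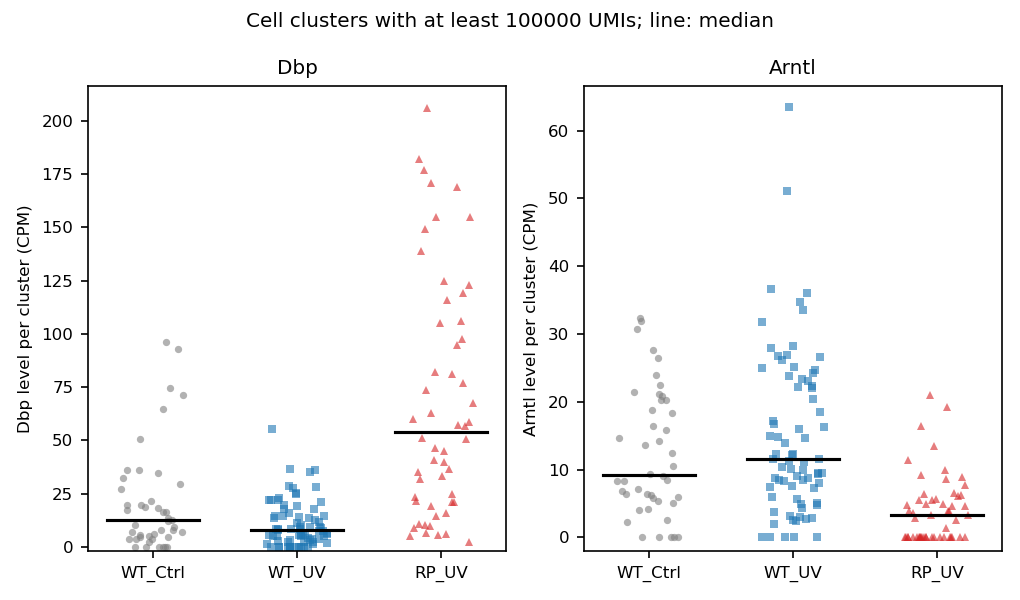
Dbp and Arntl levels in every cluster with at least 100000 UMIs, by library, in CPM; each point is 1 cluster of 1 library and the line is the median. The RP_UV clusters lie high for Dbp (median 53.9 against 12.4 in WT_Ctrl and 8.08 in WT_UV) and low for Arntl (3.28 against 9.24 and 11.6). The classes with clusters at this depth differ between the libraries.

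The finer clusters show the spread of both genes within a library. Of 54 RP_UV clusters with 100000 UMIs or more, none was at 0 for Dbp and 23 were at 0 for Arntl, whereas 6 of 44 WT_Ctrl clusters and 12 of 75 WT_UV clusters were at 0 for Dbp and 5 in each were at 0 for Arntl. Dbp ranged from 2.34 to 206 CPM over the RP_UV clusters, from 0 to 96.3 in WT_Ctrl and from 0 to 55.3 in WT_UV, so the libraries overlapped. These sets differ in cell class. RP_UV had endothelial, pericyte, fibroblast and Schwann clusters at this depth and WT_UV had none of these, so the ranges and medians also move with class. Where RP_UV and WT_UV both had the same cluster at that depth, Dbp was higher in RP_UV in 28 of 29 clusters and at least 2-fold in 23. The limit was lowered after results at 200000 UMIs were known, and at 200000 the counts were 17 of 17 and 14. Arntl was lower in RP_UV in 24 of those 29 clusters (14 of 17). It was at least 2-fold lower in 11 and at least 2-fold higher in 1 (11 and 0). Against WT_Ctrl, Dbp was higher in RP_UV in 13 of 16 shared clusters but at least 2-fold in only 4 (5 of 6 and 1). Arntl was lower in 13 of 16 but at least 2-fold in only 5 (6 of 6 and 4). A level of 0 in a cluster also depends on how many UMIs it holds. Clusters of 1 library share its animal and are no replicates.

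Within macrophages, 7 of the 9 RP_UV clusters had more Dbp than the highest wild-type macrophage cluster, at 36.4 CPM from 9 UMIs. In 1 of the 7 the level of 36.5 CPM came from 5 UMIs and cannot be told apart from it. The range was 5.72 to 155 CPM in RP_UV, 3.47 to 19.5 over 7 clusters of WT_Ctrl and 0 to 36.4 over 17 clusters of WT_UV. The cluster led by Ccl12, 32.4% of the macrophages of RP_UV, was at 94.5 CPM and the one led by Chil3, 27% of them, at 73.7, against 8.92 and 14.3 in the same clusters of WT_UV. The cluster led by Cd93 was at 97.5 against 20.9, and the one led by Mmp12 at 21.3 against 5.39. The largest macrophage cluster of WT_Ctrl, led by Hal, held 45.3% of its macrophages, and the only macrophage cluster that RP_UV and WT_Ctrl shared at this depth had 1 and 3 Dbp UMIs, so macrophages of these libraries were compared across different clusters.

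A large set of cells that kept no class name showed the same contrast. A cluster of 712 cells of RP_UV led by Lyve1 and Fcna, genes known from resident macrophages, had Dbp at 169 CPM, Arntl at 5.73, Per2 at 8.59 and Nr1d1 at 74.1. A cluster of 566 cells of WT_Ctrl led by Retnla and Lyve1 had Dbp at 12.7 CPM, Arntl at 30.7, no Per2 UMI and Nr1d1 at 31.3. The 53 cells of that second cluster in WT_UV had Dbp at 25.2 and Arntl at 33.6 CPM, from 6 and 8 UMIs. A further cluster with Lyve1 among its leading genes, led by Ednrb, was named macrophage and had 445 cells of WT_UV and 7 of RP_UV. It made up 19.6% of WT_UV macrophages, with Dbp at 14.5 CPM from 72 UMIs. The pooled macrophage comparison with WT_UV thus held such Lyve1 cells mainly on the WT_UV side.

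The Per genes, which encode part of the repressor complex, did not move as 1 group. Per2 (ENSMUSG00000055866) was nearly absent from wild-type macrophages, at 0.327 CPM (0.0396 to 1.18, 2 UMIs) in WT_Ctrl and 0.363 (0.174 to 0.667, 10 UMIs) in WT_UV, and was at 5.39 (3.85 to 7.34, 40 UMIs) in RP_UV. That was 14.9-fold over WT_UV (7.3 to 33.3) and 16.5-fold over WT_Ctrl (4.27 to 141). Keratinocytes had 4, 2 and 19 Per2 UMIs, at 0.533, 0.313 and 2.44 CPM. Endothelial cells had 0, 0 and 9, pericytes 0, 0 and 19, and fibroblasts 0 in WT_Ctrl and 7 in RP_UV. RP_UV was the highest library in macrophages and keratinocytes, and in fibroblasts it was above the level that 0 UMIs allows in WT_Ctrl. In endothelial cells, with 279344 UMIs in WT_Ctrl and 177401 in WT_UV, 0 UMIs allows more than the RP_UV level in both. The same holds for pericytes of WT_UV, with 118057 UMIs, so these zeros do not rank the libraries. Over all kept cells Per2 was at 0.62, 0.744 and 5.84 CPM.

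Per3 (ENSMUSG00000028957), the third Per gene, had 6.38 CPM in WT_Ctrl macrophages, 5.73 in WT_UV and 13.2 in RP_UV, 2.3-fold over WT_UV (1.77 to 2.98) and 2.07-fold over WT_Ctrl (1.41 to 3.08). In keratinocytes it was at 17.7, 5.8 and 15.8. The wild-type macrophages overlapped and RP_UV was above them, while in keratinocytes WT_UV was low, 3.06 times below WT_Ctrl (2.11 to 4.53), and RP_UV and WT_Ctrl differed by a fold of 0.893 whose interval spans 1 (0.693 to 1.15). Over WT_Ctrl the macrophage log2 fold went down to 0.83 with thinned cells, under a fold of 2. In shared clusters Per3 of keratinocytes was higher in RP_UV than in WT_UV in 10 of 11, and lower in WT_UV than in WT_Ctrl in 7 of 7.

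Per1 (ENSMUSG00000020893), which also responds within the hour to cAMP and glucocorticoids, followed neither. It was at 19 CPM in macrophages of WT_Ctrl, 31.4 in WT_UV and 30.5 in RP_UV, so the irradiated libraries overlapped at a fold of 0.969 (0.834 to 1.12) and both were above WT_Ctrl, by 1.66 (1.36 to 2.03) and 1.6 (1.28 to 2.02). In keratinocytes both irradiated libraries were below WT_Ctrl, at 9.87 and 9.01 against 20.9 CPM. The macrophage order was that of the pooled class and turned within clusters, since Per1 was lower in WT_UV than in WT_Ctrl in all 7 macrophage clusters that both held with 100000 UMIs, with medians of 11.7 and 22.8 CPM, and higher in RP_UV than in WT_UV in 7 of 8. Neutrophils of WT_UV were at 329 CPM (252 to 423) and those of RP_UV at 165 (139 to 193). Dendritic cells were at 66.1, 59.5 and 64.7 in the 3 libraries.

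Cry1 (ENSMUSG00000020038), a core repressor whose transcript peaks later than those of the Per genes, was at 0.982 CPM in macrophages of WT_Ctrl (0.36 to 2.14, 6 UMIs), 3.16 (2.53 to 3.89) in WT_UV and 7.14 (5.35 to 9.34) in RP_UV. The intervals of the 3 libraries did not overlap, with RP_UV 2.26-fold over WT_UV (1.58 to 3.22) and 7.27-fold over WT_Ctrl (3.13 to 20.7). In shared macrophage clusters Cry1 was higher in RP_UV than in WT_UV in 7 of 8, but higher in WT_UV than in WT_Ctrl in 2 of 7 and lower in 4. Keratinocytes showed no such order, at 7.33, 4.23 and 5.79 CPM. Neutrophils, nearly absent from WT_Ctrl, had Cry1 at 43.1 CPM in WT_UV and 80.1 (62.8 to 101) in RP_UV. Ciart (ENSMUSG00000038550), a repressor of the Clock and Arntl pair also known as Chrono, was at 1.8, 4.57 and 3.1 CPM in macrophages and at 2.13, 2.35 and 4.38 in keratinocytes. It was 2.54-fold higher in macrophages of WT_UV than of WT_Ctrl (1.37 to 5.22), and RP_UV lay between them and overlapped both, while with every cluster given its best panel that log2 fold was 0.84, under a fold of 2.

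Nr1d1 and Nr1d2, the nuclear receptors Rev-erb alpha and beta that repress Arntl, moved apart between the deep classes in their pooled levels. Nr1d1 (ENSMUSG00000020889) was at 14.2 CPM in macrophages of WT_Ctrl (11.4 to 17.6), 17.7 (16.2 to 19.3) in WT_UV and 34.8 (30.6 to 39.3) in RP_UV. In keratinocytes the order was turned round, with 44.4 (39.8 to 49.4) in WT_Ctrl, 23.2 (19.6 to 27.3) in WT_UV and 16.7 (14 to 19.9) in RP_UV. RP_UV was thus 2.44-fold above WT_Ctrl in macrophages (1.91 to 3.15) and 2.65 times below it in keratinocytes (2.16 to 3.28), where it was lower in 6 of the 8 shared clusters. The 1 macrophage cluster that RP_UV and WT_Ctrl shared with 100000 UMIs had no Nr1d1 in either. Against WT_UV, Nr1d1 was higher in RP_UV in 5 of 8 shared macrophage clusters and lower in 3, with medians of 34.7 and 20.4 CPM. Fibroblasts went with the keratinocytes, at 86.5 CPM (70.7 to 105) in WT_Ctrl and 38.3 (27.1 to 52.6) in RP_UV.

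Nr1d2 (ENSMUSG00000021775) moved less. It was at 20.3, 25.2 and 33 CPM in macrophages and at 37.7, 22.3 and 23.9 in keratinocytes. RP_UV was 1.31-fold over WT_UV and 1.63-fold over WT_Ctrl in macrophages, and 1.58 times below WT_Ctrl in keratinocytes. It was past a fold of 2 in none of these comparisons. In the 8 keratinocyte clusters that RP_UV and WT_Ctrl both held with 100000 UMIs, Nr1d2 was higher in RP_UV in 4 and lower in 4.

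Tef (ENSMUSG00000022389), the PAR bZIP relative of Dbp, had 9.49 CPM in WT_Ctrl macrophages, 12.7 in those of WT_UV and 22 in those of RP_UV. RP_UV was 1.73-fold over WT_UV (1.43 to 2.09) and 2.31-fold over WT_Ctrl (1.71 to 3.18). In keratinocytes it was at 32.5, 13 and 22.8 CPM. WT_UV was 2.5 times below WT_Ctrl (1.94 to 3.25) and RP_UV lay between, 1.75-fold over WT_UV (1.34 to 2.3) and 1.43 times below WT_Ctrl (1.17 to 1.74). WT_UV was below WT_Ctrl in all 7 shared keratinocyte clusters. RP_UV was above WT_Ctrl in 5 of the 8 that they shared and below in 3, with medians of 29.9 and 25.9 CPM. The lower Tef of RP_UV than of WT_Ctrl thus holds for the pooled class and not cluster by cluster. Endothelial cells were at 39.4, 22.5 and 60 CPM and Schwann cells at 56.2 in WT_Ctrl and 86.1 in RP_UV.

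**Figure D3:**
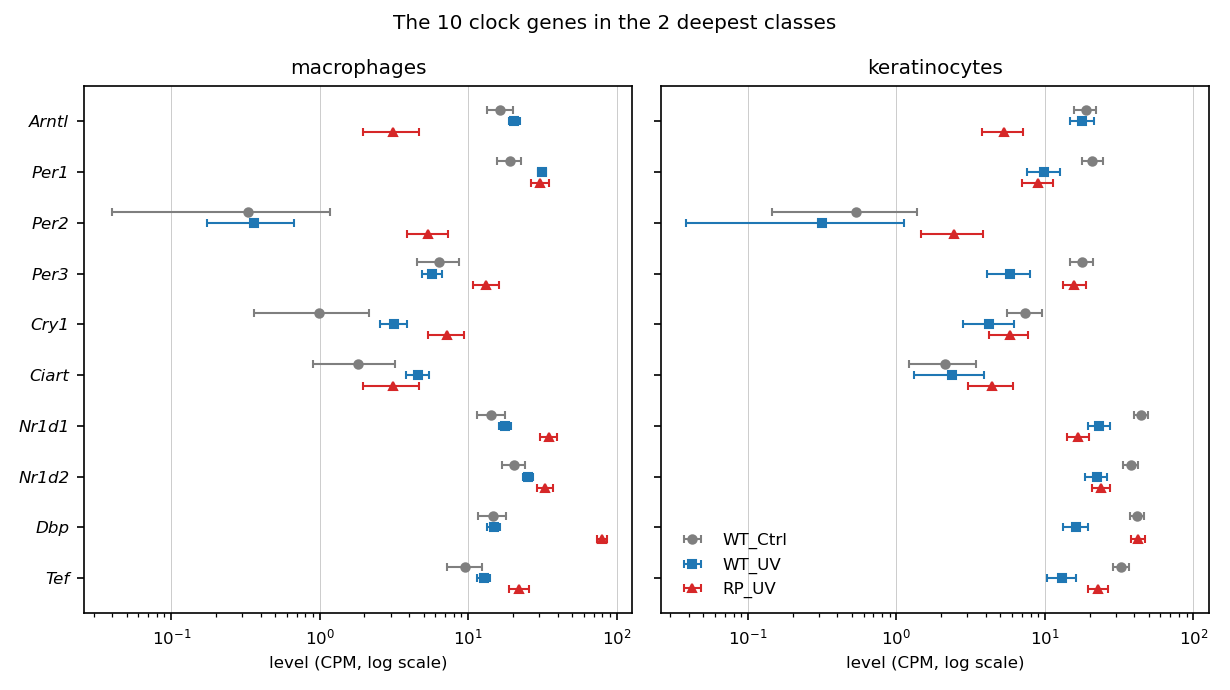
Levels of the 10 clock genes in macrophages and keratinocytes of the 3 libraries, in CPM on a log axis with 95% Poisson intervals. RP_UV is the lowest library for Arntl and the highest for Per2 in both classes, whereas for Nr1d1 it is the highest in macrophages and the lowest in keratinocytes.

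Counted together in macrophages, 4 of the 10 genes were at least 2-fold higher in RP_UV than in WT_UV (Dbp, on which the genes were picked, Per2, Per3 and Cry1) and 1 was at least 2-fold lower (Arntl). Under other treatments of the cells the log2 folds of Cry1 and Per3 went down to 0.55 and 0.78, under a fold of 2. Of all 11900 genes with 30 UMIs in this comparison, 3.03% were that much higher and 7.12% that much lower. The median log2 fold was 0.88 over the 10 genes and -0.07 over all genes. Against WT_Ctrl, 6 of 10 were at least 2-fold higher (Per2, Cry1, Dbp, Nr1d1, Tef and Per3) and Arntl was lower, with 6.39% and 6.96% of all 10521 genes, and a median of 1.13 against 0.04. With thinned cells the log2 fold of Per3 over WT_Ctrl went down to 0.83, under a fold of 2. Between the wild-type libraries 2 of the 9 genes with enough UMIs were at least 2-fold higher in WT_UV (Cry1 and Ciart) and none lower, against 5.77% and 2.66% of all genes. Under other treatments of the cells Arntl (a log2 fold of 1.24 with thinned cells) and Per1 (1.09 with a limit of 4000 genes and 1.03 with means over cells) passed the fold there, and Ciart (0.84) did not. The genes are parts of 1 loop and are not independent of each other.

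In keratinocytes 2 of 9 genes were at least 2-fold higher in RP_UV than in WT_UV (Dbp and Per3) and 1 lower (Arntl), where 6.6% of all 10966 genes were higher and 5.33% lower. Against WT_Ctrl, 1 of 9 was higher (Ciart) and 3 were lower (Arntl, Nr1d1 and Per1), beside 9.43% and 10.4% of all genes. In WT_UV against WT_Ctrl none was at least 2-fold higher and 4 were lower (Per3, Dbp, Tef and Per1), beside 3.61% and 3.38% of all genes. The median log2 folds over the 9 genes were 0.45, -0.51 and -0.94 in that order, and 0.06, -0.06 and -0.13 over all genes. RP_UV was thus on opposite sides of WT_Ctrl in the 2 classes by this median of pooled levels. Arntl was lower and Per2 higher in both classes. In the 8 keratinocyte clusters that RP_UV and WT_Ctrl shared, Dbp was higher in RP_UV in 7 and Tef and Ciart in 5. Per3 and Nr1d2 were higher in 4 and lower in 4. Per1, Nr1d1 and Arntl were lower in 6 and Cry1 in 5. Macrophages of the 2 libraries shared 1 cluster at that depth. The part of cluster makeup in these medians was not tested.

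The other classes held 30 UMIs for 6 genes or fewer. Of 6 genes in pericytes, 4 were at least 2-fold higher in RP_UV than in WT_UV (Dbp, Tef, Per1 and Per3), each from 1 or 2 UMIs in WT_UV, where 18.6% of all genes were that much higher. Of 6 in endothelial cells, 2 were (Dbp and Tef), where 10.7% of all genes were. Of 6 in T cells, 3 were (Arntl, Per1 and Nr1d2), each from 2 to 5 UMIs in RP_UV and with an interval that spans 1, where 12.8% of all genes were. Against WT_Ctrl, none of 6 in endothelial cells and none of 5 in Schwann cells passed the fold, where 6.33% and 4.89% of all genes were higher and 5.36% and 3.81% lower. Of 6 in fibroblasts 1 was lower (Nr1d1) and none higher, where 4.11% of all genes were lower and 9.03% higher, and of 6 in pericytes 1 was higher (Per3, from 1 UMI in WT_Ctrl), at 4.38%.

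Counted over classes, Dbp was past a fold of 2 in 4 of the 9 classes compared between RP_UV and WT_UV, always higher in RP_UV. It was past that fold in 1 of 10 classes between RP_UV and WT_Ctrl, the macrophages, and in 1 of 9 between WT_UV and WT_Ctrl, the keratinocytes, where WT_UV was lower. A class needed 20 cells in each library, and a gene 30 UMIs over both, which Dbp had in 5, 6 and 3 of these classes. Over all kept cells Dbp stood at 26.6 CPM in WT_Ctrl, 11.4 in WT_UV and 82.6 in RP_UV, a value that also moves with the share of each class.

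**Figure D4:**
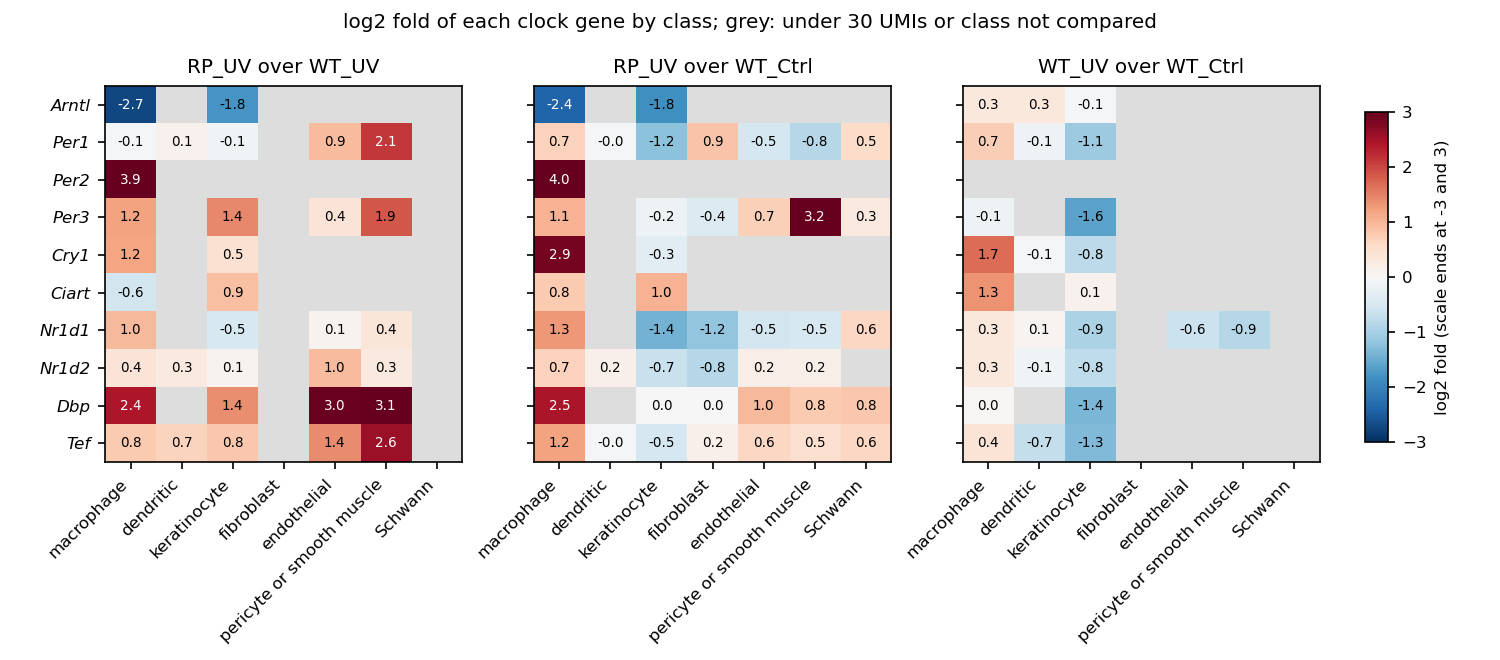
Log2 folds of the 10 genes in 7 cell classes for each of the 3 comparisons; grey marks a gene with under 30 UMIs over both libraries or a class that was not compared. The Arntl cells of macrophages and keratinocytes are at -2.72 and -1.76 for RP_UV over WT_UV, while Dbp is positive in every class shown with enough UMIs for that comparison.

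In macrophages 1 of 15 further clock genes with enough UMIs, of 20 listed, was at least 2-fold higher in RP_UV than in WT_UV, Wee1 (3.02-fold), a cell cycle kinase under clock control, and 1 was lower, Rora (2.53 times), the activator that competes with the Nr1d receptors, where 3.03% of all genes were higher and 7.12% lower. Against WT_Ctrl, where 6.39% of all genes were higher, 3 of 14 were higher, Wee1 (3.41-fold) and the repressors Bhlhe40 (2.82-fold) and Bhlhe41 (2.57-fold), and none was lower. In WT_UV against WT_Ctrl, where 5.77% of all genes were higher, 4 of 15 were, namely Bhlhe40 (3.74-fold), Nfil3 (3.05-fold), the D-box repressor, Usp2 (2.85-fold) and Bhlhe41 (2.11-fold). Clock, the partner of Arntl, had 46.6, 49.2 and 36.8 CPM in macrophages of the same 3 libraries, in the order unirradiated, irradiated and RP.

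In keratinocytes none of 17 further clock genes passed the fold between RP_UV and WT_UV. Against WT_Ctrl, Hlf, the remaining PAR bZIP factor, was 5.4 times lower in RP_UV and 2.94 times lower in WT_UV, at 106 CPM in WT_Ctrl, 35.9 in WT_UV and 19.6 in RP_UV. Wee1 was 2.09 and 3.03 times lower in the same order. In RP_UV Bhlhe40 and Btrc were also lower (2.17 times each), and Timeless (2.52-fold) and Bhlhe41 (2.43-fold) were higher, which makes 4 lower and 2 higher of 17, beside 10.4% and 9.43% of all genes. In WT_UV Cry2 was lower too (2.25 times), which makes 3 of 18 and none higher, beside 3.38% of all genes lower. These are pooled levels over different clusters, since the one led by Krt15 had 369, 35 and 6 cells in WT_Ctrl, WT_UV and RP_UV. Shared clusters were not compared for these genes.

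Grouped by the time of day at which their transcripts are known to peak, the 11 genes that peak with Dbp were higher in RP_UV than in WT_Ctrl in 9 of 9 measured in macrophages, 6 of them past the fold, as 6.39% of all genes were. In keratinocytes 4 of 10 were higher and 6 lower, with 2 and 3 past the fold, where 9.43% and 10.4% of all genes were. Against WT_UV, 7 of 10 were higher in each of the 2 classes, with 3 past the fold in macrophages and 2 in keratinocytes, where 3.03% and 6.6% of all genes were. Of the 5 genes that peak opposite to Dbp, 4 were measured. In macrophages 1 was past the fold upward (Cry1) and 1 downward (Arntl) in both comparisons of RP_UV. In keratinocytes 3 of the 4 were higher in RP_UV than in WT_UV, with a median log2 fold of 0.34, and 1 of 4 higher than in WT_Ctrl, with a median of -0.23, and Arntl alone was past the fold, downward, in each. The lists contain the 10 genes and are not separate evidence.

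Since Per1, Per2 and Dbp transcripts can also answer to hormones and to cell stress, 8 glucocorticoid-responsive genes and 8 immediate early genes were read in the same cells. In macrophages 1 of the 8 glucocorticoid-responsive genes was at least 2-fold higher in RP_UV than in WT_UV, Fkbp5 (2.03-fold). Of all genes, 3.03% were that much higher. Against WT_Ctrl 3 were higher, Sgk1 (2.18-fold), Fkbp5 (2.12-fold) and Ddit4 (2.02-fold), and Zbtb16 was 2.98 times lower. There 6.39% of all genes were higher and 6.96% lower. In keratinocytes Fkbp5 was 2.01-fold over WT_UV and 2.48-fold over WT_Ctrl, while Klf9, itself a gene with a daily rhythm, was 2.9 and 6.37 times lower. That was 1 of 8 in each direction against WT_UV, where 6.6% of all genes were higher and 5.33% lower. Against WT_Ctrl 1 was higher and 2 were lower, Klf9 among them, where 9.43% and 10.4% of all genes were. Of the immediate early genes, none was past the fold upward and 1 downward in macrophages of RP_UV against WT_UV. The shares of all genes there were 3.03% and 7.12%. Against WT_Ctrl 2 were past it upward and none downward, beside 6.39% and 6.96% of all genes. In keratinocytes 3 of 8 were lower against WT_UV, where 5.33% of all genes were, and 7 of 8 against WT_Ctrl, where 10.4% were. In fibroblasts of RP_UV 6 were higher against WT_Ctrl, where 9.03% of all genes were, and in pericytes 5 of 8 were higher against WT_UV, where 18.6% were. Over the named classes, Fkbp5 was at least 2-fold higher in RP_UV in 6 of 8 measured against WT_UV and in 4 of 6 against WT_Ctrl. Cebpd was in 4 of 8 and in 2 of 8. By class, 3.03% to 18.6% and 4.38% to 19.5% of all genes were. Klf9 was lower in 6 of 7 and in 6 of 8, past the fold in 1 and 2. Sgk1 passed it downward in 2 and 1 and upward in 0 and 1. All are pooled levels, and shared clusters were not compared for these lists. The part of these genes in the clock gene values was not tested.

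Genes whose level ran most like Dbp were sought over 30 sums, 1 for each class and library with at least 100000 UMIs, among 5063 genes at 20 CPM or more in at least 50% of them. The sums of 1 library share its depth and animal, so the correlations are descriptions. On log2(CPM + 10), the nearest were Tmed4 (r = 0.85), Stk25 (0.84), Atxn7l3b (0.82), Pafah1b2 (0.81) and Cenpb (0.81). Among the clock genes, Tef had an r of 0.75 with Dbp and ranked 46, Nr1d2 had 0.70 and ranked 97, and Per1 had -0.11 and ranked 3681. Nr1d1 (0.80), Per3 (0.76), Ciart (0.35), Per2 (0.32), Cry1 (0.00) and Arntl (-0.04) were below the level limit and were not ranked.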

How the data were processed

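Single-cell 3′ RNA libraries of CD45+ enriched dorsal skin were compared, 1 per group. The deposited matrices hold counts of UMIs, not normalized by the authors. The file headers name Cell Ranger 6.1.1, and the labels name the build mm10. Cells were filtered as in the study (mitochondrial share under 10%, more than 200 and fewer than 4000 genes, or 6000 in WT_UV), which kept 25795684, 64556621 and 29128981 UMIs in WT_Ctrl, WT_UV and RP_UV. Libraries were integrated in Seurat 5.3.0 (sctransform 0.4.2, R 4.3.3, 3000 features, 30 dimensions, resolution 0.8) without the clock genes and other genes named among the features, and split with Leiden clustering (leidenalg 0.10.2, scanpy 1.11.5) into 135 clusters, of which 88 were named from 19 marker panels. No doublets were removed.

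Counts were summed per class and library and given as CPM (Python 3.11.15, numpy 2.4.6, scipy 1.17.1). A gene entered a comparison with 30 UMIs over both libraries and a class with 20 cells in each. The level that 0 UMIs allows is that of 3 UMIs. Classes were also made from marker UMIs alone, from each library clustered alone, with 4000 genes as the limit everywhere, from all barcodes, from cells thinned to 2000 UMIs, as means over cells, with median-of-ratios scaling and without the 5% of cells with the highest Scrublet scores. The genes named were the 10 clock genes, listed clock and response genes past the fold, and the nearest genes by correlation. The genes and lists were chosen with earlier results of these data known, and the limits of the cluster names follow an earlier treatment of the same data. The ratios were tested on simulated data. With 1 library per group, no p-value was computed.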

Additional observations from a re-analysis of the deposited data

Results flagged for a closer look

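In 3 instances a clock gene lay past the fold in opposite directions in different classes of the same comparison, and none of these differences was tested. Arntl in RP_UV over WT_UV had a log2 fold of -2.72 in macrophages and -1.76 in keratinocytes but 1.22 in T cells, where RP_UV had 2 UMIs and the fold of 2.32 had an interval from 0.272 to 8.91. Per3 in WT_UV over WT_Ctrl had a log2 fold of 1.09 in T cells, from 5 UMIs in WT_Ctrl and with an interval of the fold from 0.853 to 6.83, and of -1.61 in keratinocytes. Nr1d1 in RP_UV over WT_Ctrl had a log2 fold of 1.29 in macrophages, -1.41 in keratinocytes and -1.18 in fibroblasts, each with an interval that lies on one side of 1.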

How the results depend on the processing

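No macrophage fold of the 10 genes past the threshold turned its direction under any alternative run. The log2 fold of Dbp in macrophages, RP_UV over WT_UV, was 2.43 and became 2.72 with classes from marker UMIs, 2.72 with each library clustered alone, 2.62 with a limit of 4000 genes, 2.66 with all barcodes, 2.66 with thinned cells and 2.88 with every cluster given its best panel. Over WT_Ctrl it was 2.46 and became 2.88, 2.91, 2.88 and 3.02 with marker UMIs, each library alone, all barcodes and best panels. WT_UV over WT_Ctrl was 0.03 and -0.36 with thinned cells. Classes with Dbp past the fold numbered 4 for RP_UV over WT_UV, and 2 with thinned cells, 2 with at least 50 cells and 7 with best panels. For RP_UV over WT_Ctrl they numbered 1, and 2 with each library alone, thinned cells, means over cells, median-of-ratios scaling, without the highest Scrublet scores and with best panels. For WT_UV over WT_Ctrl they numbered 1, and 3 with marker UMIs, 6 with all barcodes, 2 with means over cells and 2 with best panels. The cause was not tested. With 100 UMIs as the limit, the share of genes past the fold in macrophages was 1.7% higher and 4.71% lower for RP_UV over WT_UV, in place of 3.03% and 7.12%, and 1.35% lower for WT_UV over WT_Ctrl in place of 2.66%, among fewer genes. The best panel and free RNA alternatives were chosen after seeing the data. Arntl in macrophages stayed between -3.09 and -2.43 against WT_UV and between -2.90 and -1.59 against WT_Ctrl, and Per2 between 3.59 and 5.10 and between 4.02 and 4.98. Around a log2 fold of 1, Cry1 (0.55 with each library alone) and Per3 (0.78 with thinned cells) were below it against WT_UV in part of the alternatives, Per3 (0.83 with thinned cells) against WT_Ctrl, and Nr1d1 and Tef ranged from 0.94 to 1.34 and from 0.68 to 1.21 against WT_UV. No paired analysis was possible because each group had 1 library. With 1 library a group, the animal, its hour of collection and its preparation cannot be told apart from its group. Depth limits Per2, Ciart and Cry1 outside macrophages and keratinocytes, and all 10 genes in T cells, mast cells and Langerhans cells of RP_UV. Median-of-ratios scaling shifted the log2 folds by more than 0.1 in small classes, up to 0.33 in T cells of RP_UV over WT_UV, by -0.13 in keratinocytes of WT_UV over WT_Ctrl and by -0.04 to 0.05 in macrophages.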
